A study of Mus musculus with 18 samples.

Results

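The comparison described here is the genotype by cocaine interaction in the striatum of 12 mice, out of 18 arrays in the series. Its members are the arrays whose titles number the animal in Arabic numerals, 3 in each of 4 groups. For each probe set the cocaine response of control mice, as cocaine minus saline on the log2 scale, was subtracted from the same response of mutant mice. A value below 0 therefore means a smaller rise, or a larger fall, in the mutant. The animals fall into 3 blocks of consecutive numbers, 1 to 4, 5 to 8 and 9 to 12, and each block holds 1 animal of every group, so that the difference of differences can be read 3 times.

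The series asks how the loss of CaMKIV alters the gene expression that cocaine induces in the striatum. The groups were control mice given saline (animals 4, 8 and 10), control mice given cocaine (animals 2, 7 and 12), mutant mice given saline (animals 3, 6 and 11) and mutant mice given cocaine (animals 1, 5 and 9). All were littermates 10 to 20 weeks old, kept 1 to a cage and handled over 5 days, and the dose was 25 mg/kg into the peritoneum 1 hour before death. The striatum with the nucleus accumbens was cut from 150 µm slices, and the arrays read biotin-labelled RNA. How the mutation was made, in which cells it acts and what strain the mice are is not given in the sources used here. The genotype and the treatment come from the titles. The description line and the title gave the same pair in 0 of these 12 samples, so any direction by genotype rests on the titles alone.

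CaMKIV, the product of Camk4, is a protein kinase that works mainly in the nucleus. Calcium entering an active neuron binds calmodulin, which, with an upstream kinase, switches CaMKIV on, and CaMKIV phosphorylates CREB, a transcription factor bound at cAMP response elements near the start sites of many genes. Cocaine blocks the uptake of dopamine, and in medium spiny neurons, the projection neurons that make up most of the striatum, the resulting dopamine signal acts through cAMP, MAP kinases and calcium on immediate early genes such as Fos, Arc and Egr2. These genes are transcribed within minutes, without new protein synthesis, and many carry a CREB site.

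The promoters below are shown because CREB, a target of CaMKIV, binds the palindrome TGACGTCA or its short form TGACG. Each runs from 250 bases before to 50 bases after the start site in RefSeq (GRCm38.p6), 5′ to 3′ on the gene's own strand. Capitals mark TGACGTCA, TGACG or its reverse complement CGTCA, found by a search of both strands, in which TGACGTCA contains both short forms. Fos (chr12:85473640-85473939, plus strand) had the largest averaged change after cocaine, and Nr4a1 (chr15:101266596-101266895, plus strand) holds only short forms. Dusp1 (chr17:26508423-26508722, minus strand) is a cocaine-induced gene with the full palindrome, and Meg3 (chr12:109540746-109541045, plus strand) is a gene of small interaction p that also holds it.
Fos: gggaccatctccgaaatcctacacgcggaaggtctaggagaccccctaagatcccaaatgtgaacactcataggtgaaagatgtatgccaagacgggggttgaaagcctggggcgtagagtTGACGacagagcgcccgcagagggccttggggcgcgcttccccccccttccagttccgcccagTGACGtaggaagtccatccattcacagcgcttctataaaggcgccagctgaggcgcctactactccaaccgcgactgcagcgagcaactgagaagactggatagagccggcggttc
Nr4a1: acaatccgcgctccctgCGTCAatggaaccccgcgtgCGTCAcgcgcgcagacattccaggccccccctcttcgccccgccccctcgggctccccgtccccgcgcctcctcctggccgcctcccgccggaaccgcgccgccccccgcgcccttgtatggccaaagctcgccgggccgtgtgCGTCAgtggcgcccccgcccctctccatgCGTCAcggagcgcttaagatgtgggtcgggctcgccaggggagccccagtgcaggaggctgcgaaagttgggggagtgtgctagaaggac
Dusp1: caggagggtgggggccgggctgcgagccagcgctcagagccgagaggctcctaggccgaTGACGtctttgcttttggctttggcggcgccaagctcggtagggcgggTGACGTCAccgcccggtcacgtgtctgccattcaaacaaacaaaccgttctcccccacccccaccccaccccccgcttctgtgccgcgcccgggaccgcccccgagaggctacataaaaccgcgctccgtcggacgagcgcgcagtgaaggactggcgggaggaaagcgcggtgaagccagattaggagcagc
Meg3: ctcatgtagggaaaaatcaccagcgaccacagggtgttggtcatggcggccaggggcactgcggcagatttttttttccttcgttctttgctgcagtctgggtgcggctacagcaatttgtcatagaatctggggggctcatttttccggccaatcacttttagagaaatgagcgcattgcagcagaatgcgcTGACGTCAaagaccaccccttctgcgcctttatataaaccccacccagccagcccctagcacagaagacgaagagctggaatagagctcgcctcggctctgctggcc
In Fos the short form lay 129 and 66 bases before the start site, and in Nr4a1 the reverse complement occurred 4 times. The palindrome began 143 bases before the start of Dusp1 and 57 bases before that of Meg3.

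No probe set passed the threshold of the interaction. In limma, with the block as a term and Benjamini-Hochberg adjustment, 0 of 12535 probe sets had an adjusted p under 0.05 (0%), and the smallest adjusted p was 0.398. At an unadjusted p under 0.05 there were 717 probe sets (5.72%) where 627 are expected if no probe set differs, 269 of them above 0 (2.15%) and 448 below 0 (3.57%). An ordinary linear model also called 0 after adjustment, with 701 probe sets at an unadjusted p under 0.05. The median standard error of the difference of differences was 0.14, and simulated interactions of 1 log2 unit were recovered for 82 of 100 probe sets. Those probe sets were drawn at random from all that were kept. The 66 genes induced by cocaine, described below, had a larger median standard error of 0.23, and recovery was not simulated for them separately. The p-values measure the spread between these animals, with 1 array each.

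The 2 responses that make up the interaction were unequal in their counts of calls, which is not a test of their difference. In the same limma fit, cocaine against saline gave 27 probe sets at an adjusted p under 0.05 in control mice (0.215%), 16 higher (0.128%) and 11 lower (0.0878%), and 2 in mutant mice (0.016%), both lower. Averaged over genotypes it gave 378 (3.02%), 89 higher (0.71%) and 289 lower (2.31%). Over all 18 arrays the limma counts were 28 higher and 0 lower when averaged, 14 higher and 0 lower in control mice and 6 higher and 0 lower in mutant mice, so the direction in which most calls lay depends on the arrays used. Those 378 stand for 66 genes that rose and 249 that fell, with the brightest passing probe set of each gene taken. These genes are called induced and lowered below. Control cocaine animal 12 stood apart in these counts: without it 677 probe sets passed the averaged contrast, 297 the control and 24 the mutant contrast. Without any other single array the averaged count lay between 62, without control cocaine animal 2 or mutant saline animal 3, and 411, without control saline animal 4, and an ordinary linear model gave 0. In this balanced layout the averaged contrast is independent of the interaction, so the choice of these genes does not fix the sign of their interaction.

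The induced genes had smaller rises in mutant than in control mice in 2 blocks and larger rises in the third. Their mean level over the 66 genes was 7.72, 7.71 and 7.86 in control saline animals 4, 8 and 10, and 8.98, 9.12 and 8.55 in control cocaine animals 2, 7 and 12. In the mutants it was 7.65, 7.72 and 7.62 after saline (animals 3, 6 and 11) and 8.16, 8.58 and 8.64 after cocaine (animals 1, 5 and 9). Every cocaine array lay above every saline array, which the choice of these genes by their rise in the same arrays favours. The cocaine arrays of the genotypes overlapped, with control animal 12 below mutant animals 5 and 9. The lowest cocaine array was mutant animal 1.

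**Figure D1:**
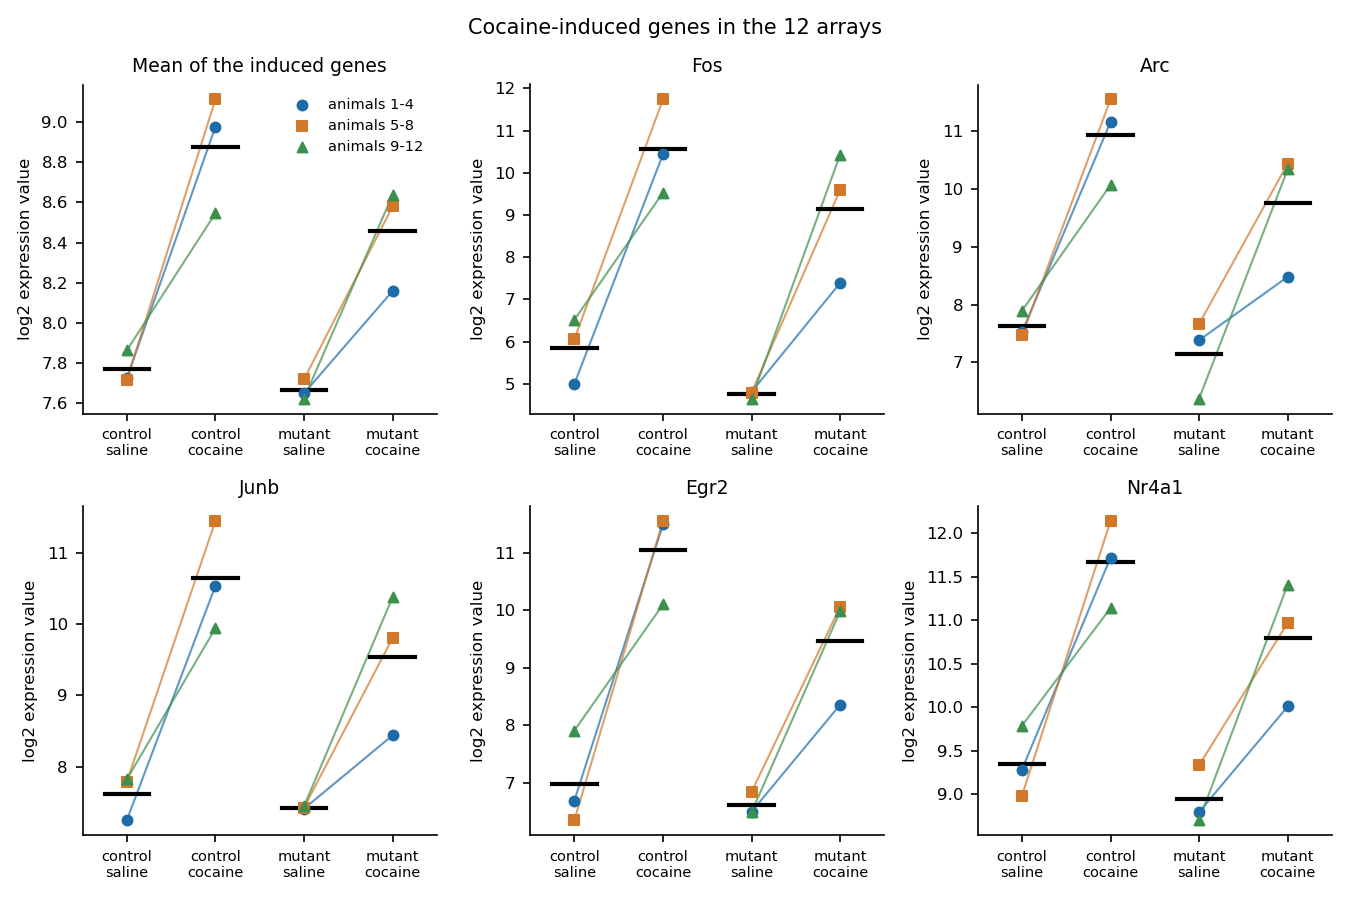
Log2 expression values in the 12 arrays for the mean of the 66 induced genes and for Fos, Arc, Junb, Egr2 and Nr4a1; points are arrays, colours and shapes are blocks of consecutive animal numbers, lines join the saline and cocaine animal of a genotype in a block, and black bars are group means. The cocaine arrays of control animals 2 and 7 stand above the mutant cocaine arrays of their blocks for the mean of the induced genes, and that of control animal 12 stands below mutant animal 9.

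As a difference of differences, the mean over induced genes was -0.74 in animals 1 to 4, -0.54 in animals 5 to 8 and 0.33 in animals 9 to 12, with a mean of -0.32 ± 0.57 (SD over 3 blocks). The control response was 1.26, 1.40 and 0.68 in the 3 blocks, and the mutant response was 0.51, 0.86 and 1.02. The value below 0 was a property of many genes at once: 56 of 66 lay below 0, against 56.8% of all 7531 genes measured, and the median was -0.27 against -0.02 for all genes. In animals 1 to 4 the value was below 0 in 56 of 66 induced genes (57.1% of all genes) and in animals 5 to 8 in 54 (54.1%). In animals 9 to 12 it was above 0 in 50 (47.3% of all genes). Control mice responded by a mean of 1.11 and mutant mice by 0.80, and the median ratio of mutant to control response was 0.712. Genes of 1 animal move together, so the count over genes is a description of 3 blocks and not a test.

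The mean depended on single animals. Without mutant cocaine animal 1 it was -0.16, without control cocaine animal 12 it was -0.52, and without control cocaine animal 2 it was -0.21. Without the block of animals 9 to 12 it was -0.64, without that of animals 5 to 8 it was -0.21 and without that of animals 1 to 4 it was -0.10. With the 6 Roman-numbered cocaine arrays added, and the numbering series as a term, it was -0.02.

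**Figure D2:**
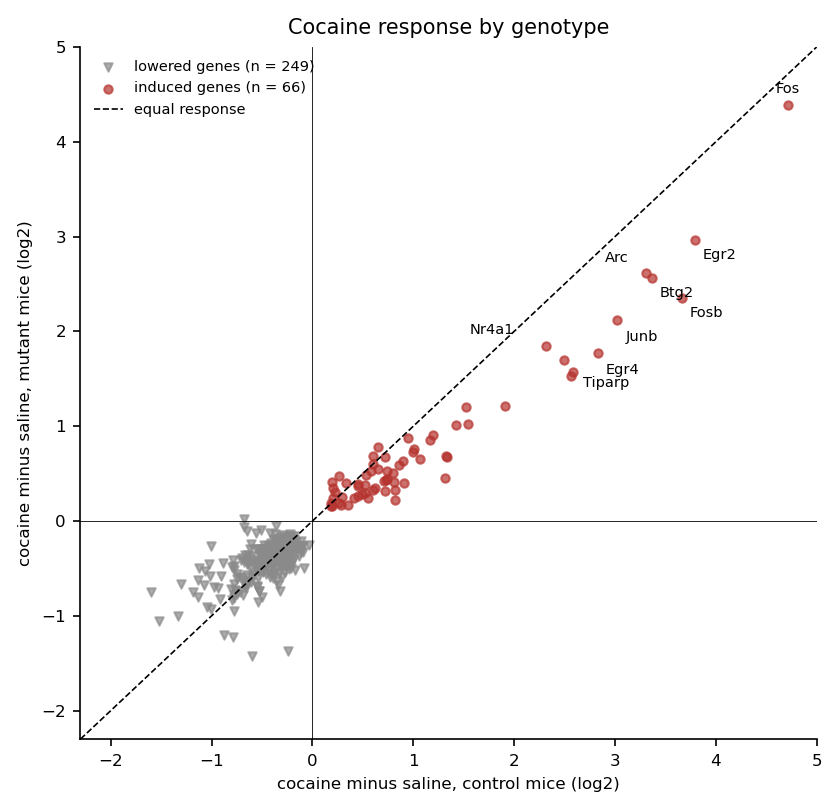
Cocaine minus saline (log2) in control mice on the x axis against that in mutant mice on the y axis, 1 point per induced gene (circles, 66) or lowered gene (triangles, 249), taken at its brightest passing probe set; the dashed line marks equal responses. Of the 66 induced genes, 56 lie below the line, while the lowered genes lie on both sides of it.

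Transcription factors headed the induced genes. Fos, a subunit of the AP-1 factor, stood at 5.00, 6.06 and 6.52 in control saline animals 4, 8 and 10, and at 10.44, 11.74 and 9.53 in control cocaine animals 2, 7 and 12. Mutant mice had 4.81, 4.79 and 4.65 after saline (animals 3, 6 and 11) and 7.39, 9.60 and 10.43 after cocaine (animals 1, 5 and 9). Mutant saline arrays were thus all below the control saline arrays, and mutant animal 1 had the lowest Fos of any cocaine array. Averaged over genotypes Fos rose by 4.55 ± 0.44 (log2, SE), 23.5-fold (limma, adjusted p = 0.00308). The responses were 4.71 in control and 4.39 in mutant mice, and the interaction was -0.32 ± 0.87 (SE), with a 95% interval of -2.27 to 1.62. By block it was -2.86, -0.88 and 2.77.

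Fosb, another AP-1 subunit, stood after cocaine at 8.00, 8.24 and 6.15 in control animals 2, 7 and 12, and at 4.88, 6.48 and 6.42 in mutant animals 1, 5 and 9. After saline the 6 arrays lay between 3.48 and 3.99, under the filter of 4, so the probe set was kept through its cocaine arrays. The interaction was -1.32 ± 0.70 (limma, adjusted p = 0.84), or -3.29, -1.26 and 0.61 by block. Junb, the third AP-1 subunit of the set, had a control response of 3.02, a mutant response of 2.12 and an interaction of -0.91 ± 0.55.

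Egr2, a zinc finger factor of the Egr family, stood after cocaine at 11.49, 11.55 and 10.10 in control animals 2, 7 and 12, and at 8.36, 10.06 and 9.98 in mutant animals 1, 5 and 9, so that every control array was above every mutant array. After saline it was 6.70, 6.36 and 7.91 in control animals 4, 8 and 10, and 6.50, 6.84 and 6.49 in mutant animals 3, 6 and 11. Its interaction was -1.20 ± 0.74 and by block -2.94, -1.97 and 1.30. Egr4 gave -1.06 ± 0.68, at a dim mean level of 4.51 and with the mean of its saline arrays under the filter of 4. Egr1, the brightest of the family, gave -0.27 ± 0.23. Nr4a1, an orphan nuclear receptor, stood at 11.72, 12.14 and 11.14 after cocaine in control animals and at 10.01, 10.97 and 11.41 in mutant animals. Its interaction was -0.46 ± 0.48, and by block -1.23, -1.52 and 1.36.

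The 12 induced genes of largest change also held effector genes. Arc, a postsynaptic protein that helps take up AMPA receptors, stood after cocaine at 11.16, 11.55 and 10.07 in control animals 2, 7 and 12, and at 8.48, 10.44 and 10.34 in mutant animals 1, 5 and 9. Its saline arrays lay between 6.37 and 7.89, the lowest being mutant animal 11. The interaction was -0.69 ± 0.69. Dusp1, a phosphatase that switches off MAP kinases, reached 10.67, 12.15 and 10.45 in control and 9.25, 10.28 and 10.84 in mutant cocaine animals, with an interaction of -0.80 ± 0.54.

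Gpr3, a receptor that raises cAMP without a ligand, had the smallest interaction p of these 12 genes. Its level was 3.51, 3.50 and 3.51 in control saline animals and 3.49, 3.50 and 3.71 in mutant saline animals. After cocaine it was 6.27, 6.49 and 5.44 in control animals 2, 7 and 12, and 4.38, 5.11 and 5.80 in mutant animals 1, 5 and 9. Levels after saline lay under the filter of 4, where the background model compresses differences. The interaction was -1.03 ± 0.47 (limma, unadjusted p = 0.0518, adjusted p = 0.84), and the block of animals 9 to 12 gave 0.16.

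The other 3 of the 12 were Btg2, an antiproliferative factor, with -0.80 ± 1.00, Gadd45b, a stress-response gene, with -0.66 ± 0.55, and Tiparp, an ADP-ribosyltransferase, with -0.61 ± 0.66. Among these 12 genes all were below 0 in animals 1 to 4 (57.1% of all genes) and in animals 5 to 8 (54.1%). In animals 9 to 12 all were above 0 (47.3% of all genes). The exact two-sided permutation of genotype within treatment and block has 64 relabellings and a smallest p of 0.03125. It swaps genotype separately after cocaine and after saline, so it assumes no genotype difference after either. A genotype difference shared by both treatments raises its p, so it is not a test of the interaction alone. In it, 0 of the 12 had a p under 0.05. The exact p was 0.875 for Fos and 0.375 for Gpr3.

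At an unadjusted p under 0.05 in the limma fit there were 3 of the 66 induced genes (5.72% of all probe sets), all below 0, and 0 had an adjusted p under 0.05. Siah2, a ubiquitin ligase, had responses of 0.82 in control and 0.22 in mutant mice and an interaction of -0.60 ± 0.21 (limma, adjusted p = 0.84), with -0.99, -0.61 and -0.20 by block, and its other probe set gave -0.32. Frmd6, a FERM domain protein of the Hippo pathway, had -0.86 ± 0.36 (limma, adjusted p = 0.84). The brightest Tiparp probe set, another than the one of largest change, had -1.02 ± 0.40 (limma, adjusted p = 0.84). Below 0 in all 3 blocks were 7 induced genes: Klf9, Trim32, Nfkbia, Atf4, Frmd6, Siah2 and Shd, where 15.9% of all probe sets were so. D10Wsu102e alone was above 0 in all 3 (10.6% of all probe sets), with 0.15 ± 0.11. These 8 were named after their values were seen.

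The interaction of the induced genes was set beside the CREB motifs of their promoters. Of the 66, 53 had a promoter in the RefSeq table, and TGACG on either strand was in 28 of them (52.8%), in 38.1% of the 6164 measured genes with a promoter and in 20.8% of all 32851 promoters of the table. The median interaction was -0.29 in the 28 genes with it and -0.28 in the 25 without. TGACGTCA was in 3 of 53 (5.66%), against 3.75% of measured genes and 1.79% of all promoters. These 3 were Dusp1, Btg2 and Errfi1, a feedback inhibitor of the EGF receptor, and their median was -0.80 against -0.28 in the other 50. Their median responses were also larger, 2.49 in control and 1.70 in mutant mice, against 0.725 and 0.469 in the other 50. With 3 genes, the motif and the size of response cannot be told apart. A gene counted as holding a motif if any of its promoters did, while the whole table was counted promoter by promoter. The shares of genes and those of all promoters are therefore unlike in unit. A match describes the letters of this window and not a bound site.

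Among the gene lists with at least 5 measured members, the medians farthest below 0 were those of activity-dependent genes. Of 13 measured immediate early transcription factors, 9 rose after cocaine averaged over genotypes (0.71% of all probe sets). In the interaction 11 lay below 0 (56.8% of all genes), with a median of -0.46 (all genes, -0.02). That median was -0.002 over all 18 arrays and lay between -0.99 and -0.15 when 1 array was left out. The members that did not pass the averaged test were Jund, Klf6, Klf4 and Klf2. By block the list median was -1.22, -1.14 and 0.82. Of 22 activity-induced effectors, 13 rose and 2 fell (2.31% of all probe sets), and 20 lay below 0 with a median of -0.28 (-0.12 over all 18 arrays). The 2 that fell were Rgs4 and Homer1, a postsynaptic scaffold, with averaged values of -0.21 and -0.47. Their interactions were -0.23 ± 0.05 and 0.14 ± 0.18. CREB target genes had a median of -0.30 (-0.11 over all 18 arrays) with 12 of 14 below 0, and 7 of them had risen. They share Fos, Junb, Egr1, Nr4a1, Dusp1 and Gadd45b with the lists above.

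MAP kinase feedback genes had a median of -0.36 over 6 members (-0.13 over all 18 arrays). Of these, 3 rose (0.71% of all probe sets), namely Dusp1, Dusp6 and Dusp14. Dusp6, the phosphatase of ERK, had responses of 1.33 in control and 0.69 in mutant mice and an interaction of -0.64 ± 0.40. Glucocorticoid response genes had -0.11 over 14 members, with 4 risen, and their median was above 0 with the actin ratio as a term (0.01) and over all 18 arrays (0.05). Circadian clock genes had -0.05 over 16 members. Among them Per1, a period gene with a CREB site, rose by 0.87 and had -0.41 ± 0.25. Bhlhe40, a repressor of the clock, rose by 1.01 and had -0.31 ± 0.20. Clock had responses of 0.11 and -0.31 and an interaction of -0.41 ± 0.13 (limma, unadjusted p = 0.0108), while its other probe set gave -0.15.

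The kinase pathway that holds Camk4 had a median of -0.07 over 18 measured members, 13 of them below 0 (56.8% of all genes). The catalytic and regulatory subunits of calcineurin, Ppp3ca and Ppp3r1, had -0.12 ± 0.05 and -0.17 ± 0.06 (limma, adjusted p = 0.84 for both). The other probe sets of Ppp3ca gave -0.20 and -0.14, and the dim one of Ppp3r1 gave 0.18. Camk2a, a kinase of the synapse, fell by 0.63 averaged over genotypes, with -0.26 in mutant mice and more in control mice, and had an interaction of 0.74 ± 0.25 (limma, adjusted p = 0.84) at a probe set with the dim mean level of 4.46. At an unadjusted p under 0.05 these were 3 of the 18 members (5.72% of all probe sets), and 0 passed after adjustment. Dopamine and cAMP signalling genes had -0.07 over 13 members, 11 below 0, of which Arpp21, a phosphoprotein of medium spiny neurons, had -0.17 ± 0.05 (limma, adjusted p = 0.84). Its other probe sets gave -0.02 and -0.03.

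Neuropeptides had -0.09 over 8 members, and their median was above 0 without control cocaine animal 2 (0.01). Penk, the enkephalin precursor, had -0.12 ± 0.06, Tac1, the substance P precursor, -0.05 ± 0.06, and Pdyn, the dynorphin precursor and a CREB target, -0.46 ± 0.22 with responses of 0.17 and -0.30. Glutamate and GABA receptors had -0.12 over 7 members. Their brightest members, Gabbr1, a subunit of the GABA-B receptor, and Gria2, a subunit of the AMPA receptor, had -0.12 ± 0.07 and -0.15 ± 0.07. Their other probe sets lay above 0, at 0.09 and 0.05 for Gabbr1 and 0.21 for Gria2. Heat shock and ER stress genes had -0.06 over 15 members, a value that was above 0 over all 18 arrays (0.04), and the chaperone Dnaja1 had -0.28 ± 0.08 (limma, unadjusted p = 0.006) and -0.14 at its other probe set. In none of the lists did a member have an adjusted p under 0.05 in the interaction.

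**Figure D3:**
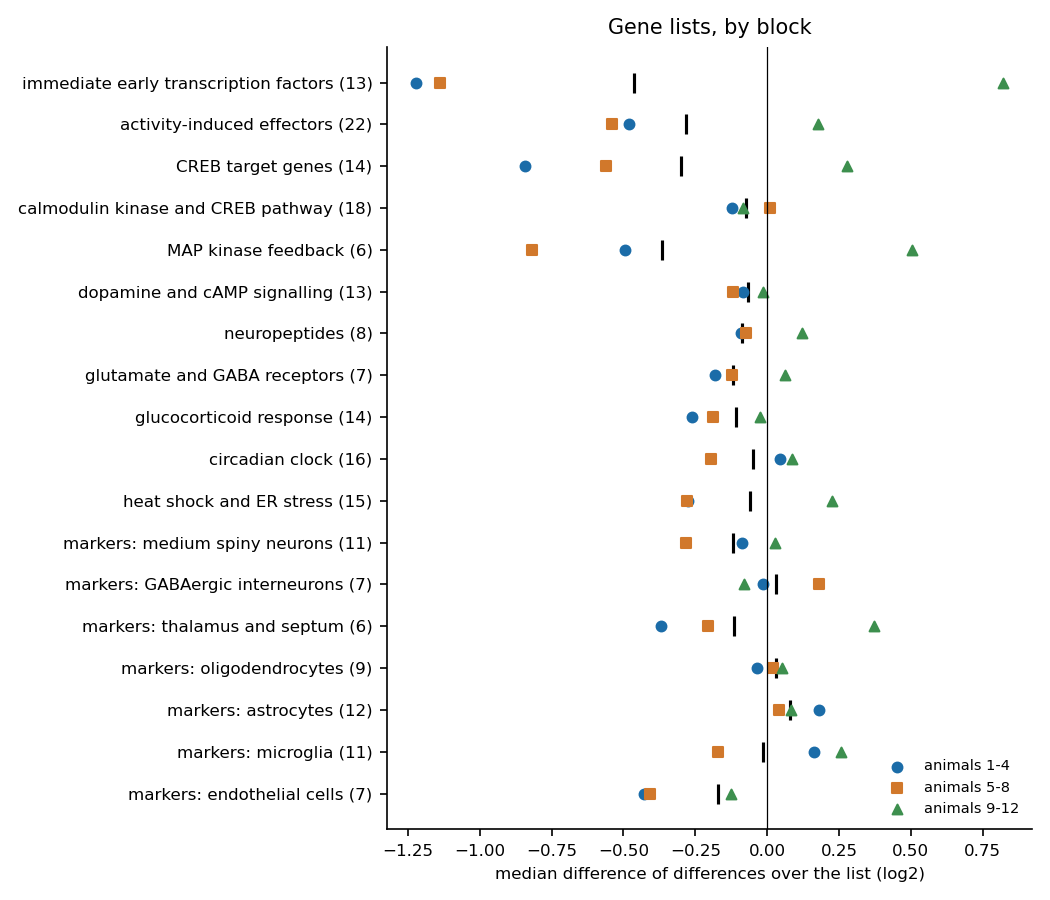
Median difference of differences (log2) over each gene list with at least 5 measured members, in each block of animals (coloured points) and in the fit over all 12 arrays (black tick), with the number of measured members in brackets. Immediate early transcription factors spread from -1.22 to 0.82 between blocks, while the astrocyte markers lie above 0 in all 3.

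Genes lowered by cocaine showed no common direction. Over 249 genes, control mice responded by a mean of -0.47 and mutant mice by -0.44, and the difference of differences was 0.01, 0.23 and -0.13 by block, with a mean of 0.03 ± 0.18 (SD over 3 blocks). Below 0 were 114 genes and above 0 were 135. At an unadjusted p under 0.05 there were 20 genes (5.72% of all probe sets), 9 below 0 (3.57%) and 11 above 0 (2.15%). The sign of the mean was below 0 with all 18 arrays (-0.33) and with the actin ratio as a term (-0.003), so no direction is given for it.

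The gene that fell most was Rasgrp1, a Ras activator that responds to calcium and diacylglycerol. It stood at 6.51, 6.99 and 6.68 in control saline animals 4, 8 and 10, and at 3.99, 4.96 and 5.52 in control cocaine animals 2, 7 and 12. Mutant mice had 6.53, 6.27 and 6.09 after saline and 4.93, 5.24 and 4.99 after cocaine. The groups did not overlap by treatment in either genotype, which the choice by the averaged change favours. Control mice responded by -1.90 and mutant mice by -1.24, and the interaction was 0.66 ± 0.40, above 0 in all 3 blocks. Rragd, a GTPase that signals amino acids to mTOR, likewise had -1.60 and -0.75, with an interaction of 0.85 ± 0.43.

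Ryr3, a calcium release channel, lay on the other side. Its level was 4.28, 4.54 and 4.51 in control saline and 3.71, 3.85 and 3.97 in control cocaine animals, and 4.43, 4.43 and 3.83 in mutant saline and 3.13, 2.98 and 2.30 in mutant cocaine animals. All 3 mutant cocaine arrays were the lowest of the 12. The interaction was -0.83 ± 0.30 (limma, unadjusted p = 0.0195, adjusted p = 0.84), and most of these values are dim. All cocaine arrays lay under the filter of 4, so the probe set was kept through its saline arrays. The other, brighter Ryr3 probe set, at a mean level of 8.08, gave an averaged value of -0.16 (limma, adjusted p = 0.169) and an interaction of -0.24. Among the 12 lowered genes of largest change the interaction ran from -0.83 for Ryr3 to 0.85 for Rragd. Between them lay Rnf14 (0.64), Ywhag (0.64), Prkacb (0.47), Scd2 (0.39), Kpna3 (0.33), Htr2c (0.33), Pfkp (0.14), Opa1 (-0.33) and Caprin1 (-0.43). Prkacb encodes a catalytic subunit of protein kinase A and Htr2c a serotonin receptor. In the exact permutation 0 of these 12 had a p under 0.05. Several of these probe sets were dim, and other probe sets of the same gene gave smaller averaged values, as for Prkacb (-0.06 at a mean level of 12.3), Caprin1 (0.02 at 11.3) and Ywhag (0.01 at 13.0). The interaction at other probe sets was -0.14 for Prkacb, -0.25 and 0.06 for Ywhag, -0.30 and -0.15 for Kpna3, -0.13, -0.07 and 0.01 for Rnf14, and -0.08 and 0.04 for Scd2, so the values above 0 given for these 5 genes belong to single probe sets. It was likewise of the other sign for Pfkp (-0.11) and Opa1 (0.09). The second probe set of Rasgrp1 gave an averaged value of -0.97 and an interaction of 0.44.

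The genes of smallest interaction p were chosen by that p, so their values describe the top of a ranking in which no gene passed. For 14 of the 20 named, 10 in each direction, the exact permutation reached its smallest p of 0.03125. The choice by p in the same arrays favours this, and the share over all probe sets was not computed. Several had opposite responses in the genotypes. Over all that were tested, 2.23% of probe sets were higher in control and lower in mutant mice after cocaine in all 3 blocks, and 1.12% were the reverse.

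Above 0, the smallest p belonged to Dmkn, which encodes the secreted protein dermokine. It stood at 8.99, 9.54 and 9.37 in control saline animals 4, 8 and 10, and at 8.44, 9.11 and 9.22 in control cocaine animals 2, 7 and 12. Mutant mice had 8.64, 8.93 and 9.21 after saline and 9.43, 9.64 and 9.72 after cocaine. The mutant cocaine arrays were above all mutant saline and all control cocaine arrays, while the control groups overlapped. The interaction was 1.04 ± 0.15 (limma, adjusted p = 0.398), with 1.34, 1.14 and 0.65 by block.

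Itga6, a laminin-binding integrin subunit, stood at 6.91, 6.17 and 7.04 in control saline and at 6.36, 5.68 and 6.74 in control cocaine animals. Mutant mice had 6.16, 5.50 and 6.31 after saline and 6.60, 6.49 and 7.00 after cocaine. Within every block the control value was lower and the mutant value higher after cocaine. The interaction was 1.15 ± 0.18 (limma, adjusted p = 0.525), but its other probe set gave 0.04.

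Tmem87a, a membrane protein of the Golgi, had values on 2 levels. Its 8 high arrays lay between 7.56 and 7.74. Low values were found in all 3 control cocaine arrays, at 3.03, 3.13 and 3.43, and in mutant saline animal 6, at 2.91. The interaction of 6.09 ± 1.20 (limma, adjusted p = 0.817) follows from these 4 arrays, and without mutant saline animal 6 it was 4.54 ± 0.16 with an adjusted p of 3.43e-06, and without the whole block of animals 5 to 8 it was 4.52 ± 0.20. Those 2 fits were the only ones of those that left out an array or a block in which the interaction gave a call, and Tmem87a was that call in both. Among the Roman-numbered cocaine animals, which this fit did not use, low values lay in both genotypes: 3.42, 7.61 and 3.42 in mutant and 7.42, 2.94 and 7.45 in control mice. In all, 4 of the 12535 probe sets had a gap of at least 3 log2 units with 3 or more arrays on either side, namely 2 for Cap1 and 1 each for Tmem87a and Paip1.

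**Figure D4:**
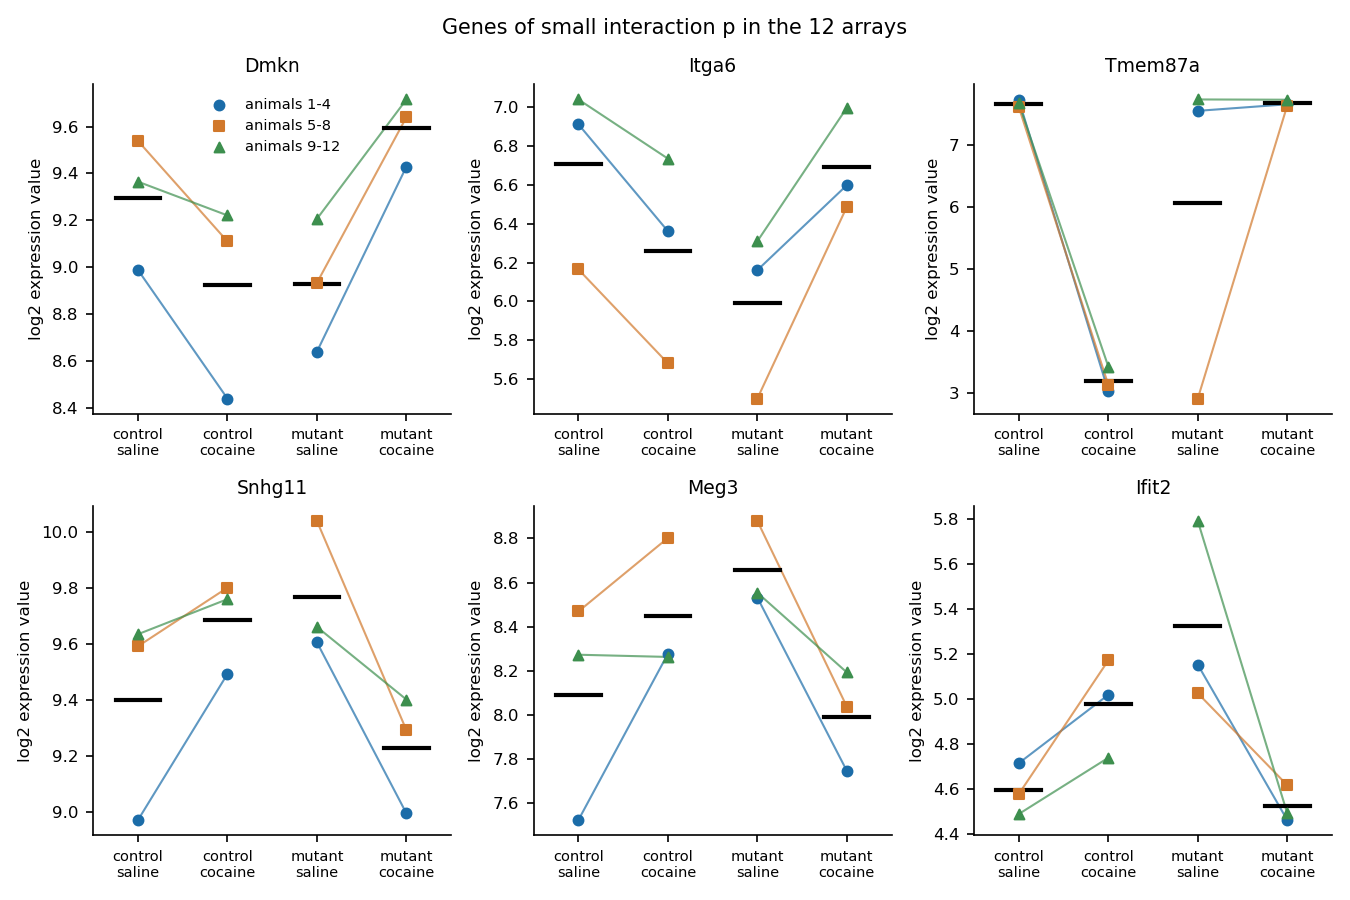
Log2 expression values in the 12 arrays for Dmkn, Itga6, Tmem87a, Snhg11, Meg3 and Ifit2, drawn as points per array with colours and shapes for blocks of animals, lines joining saline and cocaine within a block and genotype, and black bars for group means. Lines slope in opposite directions in the genotypes for Dmkn, Itga6, Snhg11 and Ifit2, and Tmem87a has 8 arrays near 7.7 and 4 near 3.

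The other 7 genes above 0 were smaller or dimmer. Taok1, a kinase upstream of p38 MAP kinase, stood at 7.07, 7.04 and 7.39 in control saline and 6.54, 6.23 and 6.71 in control cocaine animals, with responses of -0.67 in control and 0.02 in mutant mice, and an interaction of 0.69 ± 0.14. Its other probe sets gave 0.36, -0.21 and 0.03. Zfx, a transcription factor of the X chromosome, had 1.17 ± 0.24 with all 3 control cocaine arrays between 3.36 and 3.61, below the filter, and its other probe sets gave -0.08, -0.11 and 0.55. Snw1, a splicing and transcription cofactor, had 0.81 ± 0.19, and its other probe set gave 0.07. Galnt2, which starts O-glycosylation, had 0.58 ± 0.12, and its other probe sets gave 0.43 and 0.00. Ckmt1, the mitochondrial creatine kinase, had 0.49 ± 0.10, and its second probe set 0.55. Tcf4, a basic helix-loop-helix factor, had 0.34 ± 0.07, while its other probe sets gave -0.15, 0.12, 0.07 and 0.13. Nhp2, a protein of H/ACA ribonucleoproteins, had 0.27 ± 0.06 and 0.17 at its other probe set. For Nhp2 the groups overlapped by treatment in neither genotype: 10.38 to 10.41 after cocaine against 10.45 to 10.60 after saline in control mice, and 10.47 to 10.60 against 10.35 to 10.45 in mutant mice.

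Below 0, the smallest p belonged to Snhg11, a small nucleolar RNA host transcript. It stood at 8.97, 9.59 and 9.64 in control saline and 9.49, 9.80 and 9.76 in control cocaine animals. Mutant mice had 9.61, 10.04 and 9.66 after saline and 9.00, 9.29 and 9.40 after cocaine. The control groups overlapped and the mutant groups did not. The interaction was -0.82 ± 0.15 (limma, adjusted p = 0.817), or -1.13, -0.96 and -0.38 by block.

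Meg3, an imprinted transcript expressed from the maternal chromosome, was below 0 at all 5 of its probe sets, between -0.61 and -1.02. The one of smallest p stood at 7.52, 8.47 and 8.27 in control saline animals 4, 8 and 10, and at 8.28, 8.80 and 8.26 in control cocaine animals 2, 7 and 12. In mutant mice it was 8.53, 8.88 and 8.55 after saline and 7.75, 8.04 and 8.19 after cocaine. The mutant groups did not overlap, and control saline animal 4 was the lowest of all arrays. The interaction was -1.02 ± 0.22 (limma, adjusted p = 0.817), and by block -1.54, -1.17 and -0.35. Probe sets of 1 gene read the same RNA and are no replicates. Of the promoters shown above, that of Meg3 holds the full palindrome, and Meg3 had responses of 0.36 in control and -0.66 in mutant mice.

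Ifit2, an interferon-induced protein, gave the value farthest below 0 among the 10 genes of smallest p in that direction. It stood at 4.71, 4.58 and 4.49 in control saline and 5.02, 5.17 and 4.74 in control cocaine animals, and at 5.15, 5.02 and 5.79 in mutant saline and 4.46, 4.62 and 4.49 in mutant cocaine animals. The groups overlapped by treatment in neither genotype, and the interaction was -1.18 ± 0.28 (limma, adjusted p = 0.84). Levels near 5 are dim. Of 19 interferon genes listed, 3 were measured. Of the other two, Ifit3 had -0.15 ± 0.45 and Gbp2, an interferon-induced GTPase, 0.46 ± 0.66.

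The remaining genes below 0 were of high or middling level. Atp1b1, the beta subunit of the sodium pump, stood at 12.20, 12.30 and 12.26 in control saline and 12.33, 12.39 and 12.31 in control cocaine animals, and at 12.35 in all 3 mutant saline and 12.17, 12.20 and 12.15 in mutant cocaine animals. Its interaction was -0.27 ± 0.05, and its other probe sets gave -0.20, -0.32 and -0.07. Wasf1, an actin regulator of the WAVE complex, had -0.24 ± 0.05, without overlap by treatment in either genotype. Lrrk2, the kinase mutated in a familial form of Parkinson's disease, had -0.61 ± 0.14. Ahi1, a protein of the primary cilium, had -0.47 ± 0.11, while its other, dimmer probe set gave 0.29. Tbc1d23, a protein of endosome traffic, had -0.66 ± 0.14 with -0.58 at its second probe set, and Rprd1a, which binds RNA polymerase II, -0.27 ± 0.06 with 0.00 at its other probe set.

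Of the 20 genes, Taok1 and Rgs4 also fell at the named probe set when averaged over genotypes, Taok1 by 0.33 (limma, adjusted p = 0.0377). The other Taok1 probe sets, all brighter, gave averaged values of -0.05, -0.03 and -0.09 (limma, adjusted p = 0.845, 0.823 and 0.265). Rgs4, which speeds the switching off of G proteins, stood at 11.68, 11.77 and 11.69 in control saline and 11.38, 11.48 and 11.58 in control cocaine animals, and at 11.65, 11.58 and 11.69 in mutant saline and 11.06, 11.10 and 11.12 in mutant cocaine animals. Every mutant cocaine array was below every control cocaine array. The averaged change was -0.39 ± 0.04 (limma, adjusted p = 0.00308), the responses were -0.24 and -0.55, and the interaction was -0.31 ± 0.07 (adjusted p = 0.84). The exact permutation gave p = 0.219. Its other probe sets gave -0.23 and 0.03.

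**Figure D5:**
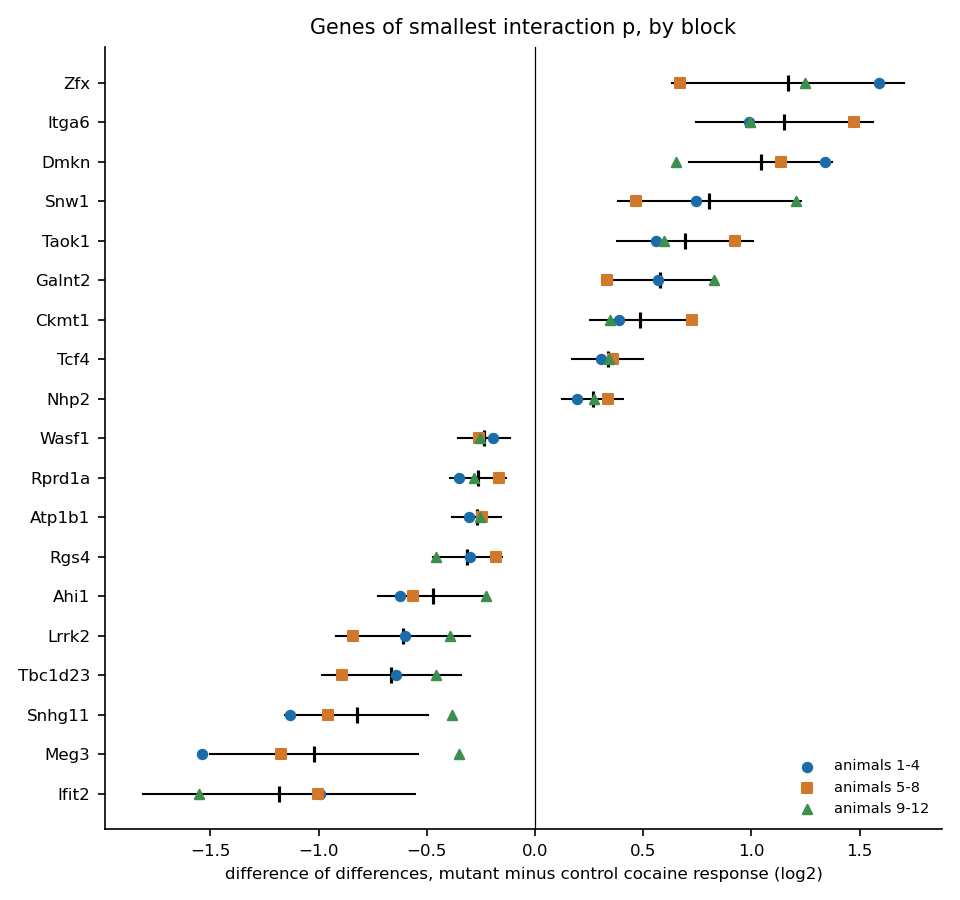
Difference of differences (log2) for 19 of the 20 genes of smallest interaction p; coloured points are the 3 blocks of animals, the black tick is the value of the fit and the line its 95% interval. All points of a gene lie on 1 side of 0, which the choice by p favours; Tmem87a, at 6.09, is left out.

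The 5 genes of smallest interaction p in a fit over all 18 arrays share these 12 arrays, so their values here are no independent check. They were Ifit2, Cbr4, a mitochondrial reductase, with -0.37 ± 0.11, Ttc19, an assembly factor of respiratory complex III, with -0.24 ± 0.08, Mns1, a protein of motile cilia, with 0.92 ± 0.32, and Taf1d, a subunit of an RNA polymerase I factor, with 0.32 ± 0.16. In Ttc19 the control cocaine arrays, at 9.39, 9.39 and 9.33, were above all other arrays, which reached 9.31.

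Camk4 itself read lower in the mutants at both of its probe sets. No cocaine contrast and no interaction passed adjustment at either probe set. The brighter probe set stood at 7.59, 7.64 and 7.72 in control saline and 7.62, 7.52 and 7.54 in control cocaine animals, and at 7.14, 7.47 and 7.29 in mutant saline and 7.23, 7.29 and 7.24 in mutant cocaine animals. The genotypes did not overlap, yet the difference was small, -0.35 ± 0.09 after saline and -0.31 ± 0.09 after cocaine, and it missed the threshold over all probe sets (limma, adjusted p = 0.696 and 0.488). The other probe set gave -0.23 and -0.38 (limma, adjusted p = 0.701 and 0.487). Its cocaine responses were -0.07 ± 0.11 in control and -0.22 ± 0.11 in mutant mice. Whether these probes lie in the altered part of the gene is not given in the sources used here. The interaction was 0.04 ± 0.13 and -0.15 ± 0.16.

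The tissue label was checked with marker genes. Medium spiny neuron markers, 11 of 14 measured, had a mean level between 12.2 and 12.4 in every group, with a median interaction of -0.12. Oligodendrocyte markers lay between 10.99 and 11.36, and their median of 0.03 was below 0 with the actin ratio as a term (-0.03). Cortical markers were nearly all unmeasured, with 1 of 10 counted, and red blood cell markers had 0 of 4. Markers of thalamus and septum were measured for 6 of 8, with a mean level between 5.42 and 6.15 and a median interaction of -0.12. Those of ependyma and choroid plexus were measured for 4 of 12, between 5.37 and 5.80, with a median of 0.21. Neighbouring tissue is thus not shown to be absent. A marker was counted only if a probe set with 1 gene symbol passed the filter. An uncounted marker is therefore not shown to be absent. In whole tissue, fewer cells of a type and less RNA per cell cannot be told apart.

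Astrocyte and endothelial markers differed in direction. Of 12 astrocyte markers 10 lay above 0 in the interaction, with a median of 0.08, where 56.8% of all genes lay below 0. Their mean level ranged from 9.84 to 9.99 in control saline, 9.75 to 9.92 in control cocaine, 9.74 to 9.85 in mutant saline and 9.85 to 9.89 in mutant cocaine arrays. Gfap, the intermediate filament of astrocytes, had 0.80 ± 0.30 (limma, unadjusted p = 0.024) and 1.27 at its other probe set, and the gap junction gene Gjb6 had 0.29 ± 0.12. Endothelial markers had -0.17 over 7 members, with the drug transporter Abcb1a at -0.62 ± 0.19 and the receptor Tek at -0.64 ± 0.27. For Abcb1a the other probe set gave -0.04. Interneuron markers had 0.03 over 7 members, and microglial markers -0.02 over 11, a sign that turned when each array was centred on its median (0.01). The part of these markers in the results above was not tested.

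The actin 3' minus 5' difference, a measure that rises as RNA shortens, also varied over the groups. It was 2.08 ± 0.20 in control saline, 2.43 ± 0.19 in control cocaine, 2.31 ± 0.09 in mutant saline and 2.33 ± 0.16 in mutant cocaine arrays (SD, n = 3 each). Its difference of differences was -0.34, and by block -0.41, -0.02 and -0.58. In a limma fit with this difference as a term, 0 probe sets had an adjusted p under 0.05 in the interaction and 0 in the averaged cocaine contrast, and the mean over the induced genes was -0.31.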

How the data were processed

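Gene expression was measured on Affymetrix arrays, 1 per animal. The authors deposited log2 expression values, made with GCRMA in R 2.4.1 per the submitters' processing notes. GCRMA corrects background by probe sequence, equalises the arrays and summarises probe sets, so a change in total signal is lost and dim differences are compressed. Which settings it ran with is not given in the sources used here. Array medians lay between 5.07 and 5.15 and values between 1.07 and 15.4, and the number of arrays limits the precision.

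Of 22690 probe sets, 64 controls were left out and 12535 that exceeded 4 on the log2 scale on 3 or more of the 12 arrays were kept. Of these, 11618 carried 1 gene symbol, 405 several and 512 none, and only the first were named, for 7531 genes. Limma 3.58.1 in R 4.3.3 fitted the 4 groups and the block of animal numbers, with a variance trend (6 residual and 4.24 prior degrees of freedom), two-sided tests and Benjamini-Hochberg adjustment over all probe sets, at a threshold of 0.05. The script was tested on simulated data.

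The genes named are the 10 of smallest interaction p in each direction, the 12 of largest change in each direction past the averaged test, the 2 brightest members of each list with any member of unadjusted p under 0.05, Camk4, and 5 genes from a fit over 18 arrays. Of these, some list members are given only within the count of their list. The comparison, gene lists and tests were chosen with earlier results of these data known. A list stood for each gene as its brightest probe set. Residuals correlated by a mean of 0.09 within blocks of consecutive numbers (lowest pair -0.231) and 0.046 within replicate numbers of the titles, so neither numbering is shown to pair the animals. Alternatives varied the block, arrays, filter, moderation, weights, centring, actin term and threshold, and left out each array and each block. Promoters came from RefSeq (GRCm38.p6).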

Additional observations from a re-analysis of the deposited data

Results flagged for a closer look

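The median cocaine response over 12 astrocyte markers was below 0 in control and above 0 in mutant animals in all 3 blocks. It was -0.06, -0.05 and -0.03 in the control animals of the 3 blocks and 0.11, 0.06 and 0.02 in the mutant animals, and the median difference of differences was 0.0809. It stayed above 0 without any 1 array, between 0.01 and 0.12, and 2 of the 12 markers lay below 0, against 56.8% of all genes. No marker had an adjusted p under 0.05 in the limma interaction, and 2 had an unadjusted p under 0.05 (5.72% of all probe sets). The ranges of their mean level in the groups overlapped, and the difference between the genotypes in this median was not tested.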

How the results depend on the processing

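The interaction gave 0 calls under all 13 alternatives other than leaving out arrays, and between 0 and 1 when an array or block was left out. The replicate block, with the replicate numbers of the titles, gave 0 calls for the interaction, 383 for the averaged, 37 for the control and 1 for the mutant contrast. Main counts were 378, 27 and 2. The averaged count was 28 over all 18 arrays, 76 without a filter, 0 in the ordinary linear model, 239 without a variance trend, 0 with the actin term and 689 at an adjusted p under 0.1. The control count was 42 without a block, 60 with a random block, 14 over all 18 arrays, 1 without a filter, 0 in the ordinary linear model, 0 without a trend, 16 with robust moderation, 87 with array weights, 0 with the actin term and 127 at an adjusted p under 0.1. The mutant count was 6 over all 18 arrays, at an adjusted p under 0.1 and with array weights, 5 with a filter above 6, 4 with robust moderation, 1 without a filter, after centring and with the actin term, and 0 in the ordinary linear model and without a trend. Leaving out an array or block gave 0 to 677 averaged, 0 to 297 control and 0 to 24 mutant calls. The mean over induced genes ran from -0.641 to -0.102 in those fits, and that over lowered genes from -0.0636 to 0.125, with -0.326 over all 18 arrays and -0.00347 with the actin term. Over all 18 arrays the interaction was 0.538 for Fos, 0.00568 for Arc and -0.0347 for the brighter Camk4 probe set, which gave -0.000305 with the actin term. Leaving out arrays or blocks, Fos ran from -1.87 to 0.945, Btg2 from -1.74 to 0.0486, Arc from -1.93 to 0.242, Tiparp from -1.61 to 0.172, Nr4a1 from -1.37 to 0.0646 and that Camk4 probe set from -0.0341 to 0.126. The cause of these shifts was not tested. With 3 animals a group, the median standard error of 0.141 limits what the interaction can show, and a filter above 6 left dim genes without a value.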
